A study of Mus musculus with 7 samples.

Results

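The 2997 accessible sites (peaks) that the deposited table places on mouse chromosome 7 were compared between wild-type and Opa1-deficient regulatory T cells. They were all rows of that table with chromosome 7 as their chromosome, of 50213 peaks in the genome (mm10), and they gave counts for 1061 protein-coding genes of 13530 genes with a peak. ATAC-seq, which reads out where a transposase can reach the DNA, had been run on Treg cells sorted from spleens of mixed bone marrow chimeras. Those mice held CD45.1+ marrow and CD45.2+ marrow at equal parts, and the CD45.2+ marrow was Foxp3Cre in the 4 WT libraries and Foxp3CreOpa1fl/fl in the 3 Opa1 KO libraries. Foxp3-Cre was thus carried by the donor cells of both groups, and it deletes the floxed Opa1 gene where Foxp3 is expressed. The sorted cells were positive for CD45.2, CD4 and Foxp3-YFP and negative for CD45.1, and no ages of the mice were given. The chromosome was chosen by its count of genes called in the KO and WT comparison and by its fold changes in 10 Mb bins, with those results known. Values of that comparison are therefore given as a description. The adjusted p values come from fits over the whole genome, and no test of the chromosome as a unit was made.

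Opa1 encodes a GTPase of the inner mitochondrial membrane, needed for membrane fusion and for the shape of the cristae. Regulatory T cells are CD4+ T cells that depend on the transcription factor Foxp3 and restrain immune responses. Mouse chromosome 7 is rich in genes in its first part, with many zinc finger genes. It also carries genes of T cell biology such as Tgfb1, Il4ra, Lat, Itgal and Lrrc32, a cluster of Trim genes with antiviral members, imprinted domains, and large arrays of olfactory and vomeronasal receptor genes that are silent in T cells. An accessible site at the start of a gene usually marks its promoter, and sites elsewhere include enhancers.

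Library totals over all peaks ran from 1534394 to 3384325 counts, KO replicate 1 being the deepest, and chromosome 7 held between 103841 and 232041 of them. Its share of all counts was 6.72%, 6.77%, 6.75% and 6.79% in WT replicates 1 to 4 and 6.86%, 6.82% and 6.71% in KO replicates 1 to 3. The groups overlapped in this share. The least different pair of WT libraries was replicate 2 and replicate 3. A chi-square test of their read pairs gave p = 0.0363 over 36418 peaks and p = 0.0305 over the 11332 peaks whose mean count reached 50. With halved counts left unrounded, a way added after those values were seen, p was 0.111 and 0.0385. The chi-square p was thus under 0.05 in 3 of 4 ways, all of which use the same counts. Chi-square per degree of freedom was 1.009 to 1.025, where sampling noise alone gives about 1, so any excess was small. Whether the pair came from separate mice was not determined, and both were kept as libraries of their own. Values are given library by library, and a fit with both summed stands beside a result where it ended a call. All 6 Treg marker genes had peaks, with a summed level of 1355 to 1468 CPM (CPM being counts scaled to library size) in WT and 1395 to 1483 in KO. The B cell markers Cd79a, Cd79b and Ms4a1 had no peak. The summed level of the 4 B cell markers with a peak was 75.9 to 90.9 CPM in WT and 58.6 to 73.1 in KO, and the groups did not overlap. The 4 of 9 myeloid markers with a peak overlapped between the groups (120 to 136 and 115 to 136 CPM), as did 5 of 6 NK and CD8 T cell markers (259 to 299 and 293 to 314 CPM). The 3 of 4 erythroid markers with a peak, all but Hbb-bs, summed to 49.7 to 62.0 CPM in WT and 34.3 to 49.9 in KO, which overlapped. The part of other cells in the results that follow was not tested. In sorted bulk cells, a site open in fewer cells and a site less open in each cell cannot be told apart.

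Peaks of chromosome 7 were placed much like those of the other chromosomes, with a higher share at genes. Their median width was 322 bp against 319 bp elsewhere. A gene was touched by 2052 of them (68.5%, against 64.4% elsewhere), 902 lay within 100 kb of a gene end, and 43 (1.43%, against 5.72%) were assigned to no gene. A RefSeq gene start lay inside 22.2% of the peaks, against 16.1% elsewhere. The count filter kept 2330 peaks and removed 667.

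Peak by peak, 2 of the 2330 tested peaks were called by edgeR's quasi-likelihood test (adjusted p under 0.05), a Trim30c peak that was higher and a Trim5 peak that was lower in KO. This was 0.0858% of the chromosome's peaks, against 0.0867% of all tested peaks (0.0473% higher and 0.0394% lower). At 219 peaks (9.4%, against 9.46% of all) the p before adjustment was under 0.05. Of these 115 were higher, where the genome had 4.7%, and 104 lower, where it had 4.76%. The log2 fold change of KO over WT was above 0 at 1172 peaks (50.3%, against 49.7% of all), with a median of 0.002. The groups did not overlap at 237 peaks (10.2%, against 9.32% of all).

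Counts were also summed over all peaks of each gene. Of 965 tested genes 12 had an adjusted p under 0.05 in the same edgeR test, 4 higher and 8 lower in KO. This was 1.24% of the chromosome's genes, against 0.345% of all tested genes (43 of 12469, 0.104% higher and 0.241% lower). Chromosome 3 and chromosome 5 followed with 4 called genes each. Before adjustment, 119 genes of chromosome 7 had a p under 0.05 (12.3%, against 11.1% of all), 63 higher (genome 5.26%) and 56 lower (genome 5.89%). The groups did not overlap at 115 genes (11.9%, against 9.62% of all). Since the calls chose the chromosome, nothing is read from these shares. The number of calls moved with the test and with single libraries. DESeq2 called 1 gene here, Trim5, and 10 in the genome (0.0802%). Without KO replicate 1, KO replicate 3 or WT replicate 1 the edgeR test called 2, 3 and 3 genes on the chromosome. It called 5 without WT replicate 3 and 6 without WT replicate 4.

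**Figure D1:**
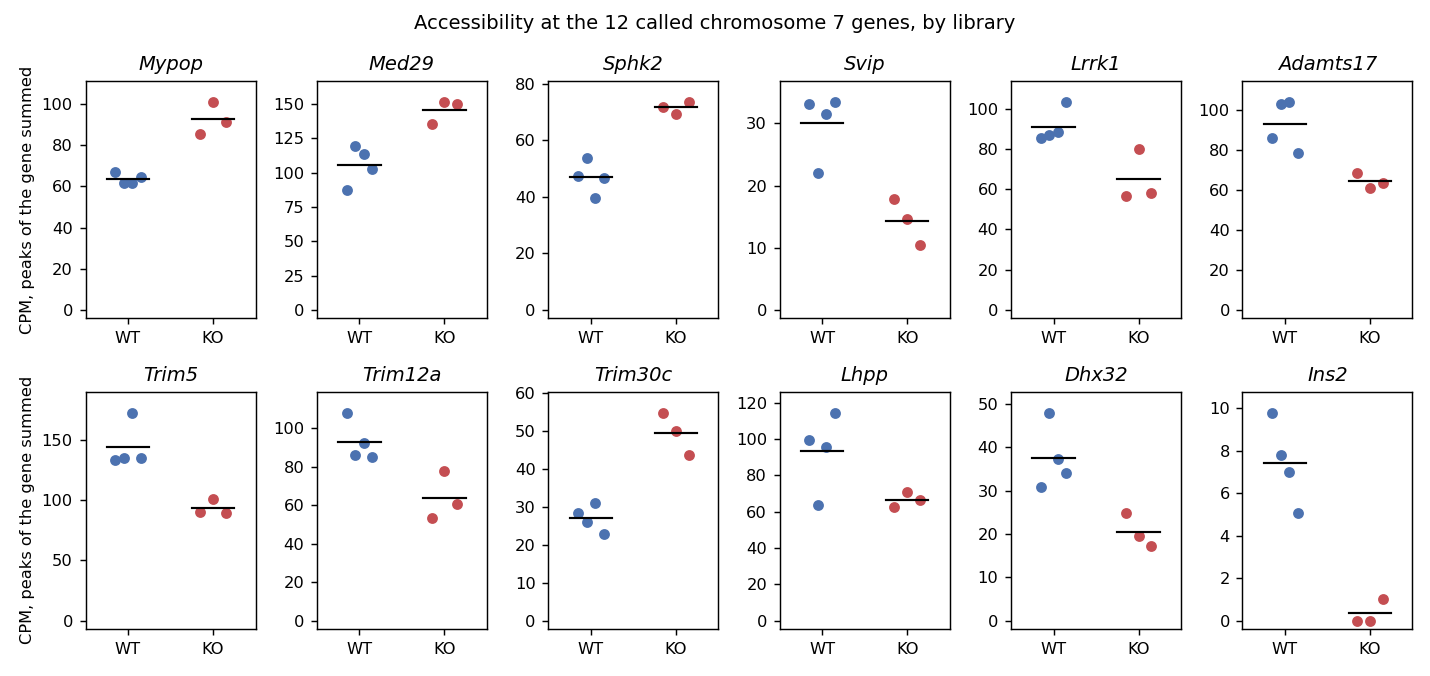
CPM of each called chromosome 7 gene, all its peaks summed, in the 4 WT libraries (blue) and the 3 KO libraries (red), with black lines at the mean of the libraries and the genes in order along the chromosome. The groups do not overlap at 11 of the 12 genes, Lhpp being the exception.

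The 4 higher genes were Mypop, Med29, Sphk2 and Trim30c. The 8 lower genes were Svip, Lrrk1, Adamts17, Trim5, Trim12a, Lhpp, Dhx32 and Ins2. Only 3 of the 12, Trim30c, Svip and Sphk2, were counted from a single peak, and 2, Trim5 and Trim30c, held a peak that was called alone. No start of Lhpp was among the RefSeq starts used, and at 7 of the 12 genes a peak covered the gene's own RefSeq start. The windows of Trim30c, Med29, Sphk2 and Svip, from 250 bases before to 50 bases after the start (RefSeq, GRCm38.p6), are given here. Those of Mypop, Dhx32 and Adamts17, also with a peak on the start, are not printed. Capitals mark matches to motif letters searched on both strands. The motifs were CRE (TGACGTCA), E-box (CACGTG), ETS (CCGGAAG), GC box (GGGCGG), NRF1, AP-1 (TGAGTCA), forkhead (GTAAACA) and Runx (TGTGGTT).
Trim30c, higher in KO, chr7:104400729-104401028, minus strand: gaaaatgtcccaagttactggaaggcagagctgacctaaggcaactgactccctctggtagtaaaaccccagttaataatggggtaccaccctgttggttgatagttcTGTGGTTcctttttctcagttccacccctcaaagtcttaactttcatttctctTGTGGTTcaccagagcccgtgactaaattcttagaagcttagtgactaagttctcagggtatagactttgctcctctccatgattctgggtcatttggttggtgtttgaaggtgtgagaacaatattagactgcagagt
Med29, higher in KO, chr7:28392641-28392940, minus strand: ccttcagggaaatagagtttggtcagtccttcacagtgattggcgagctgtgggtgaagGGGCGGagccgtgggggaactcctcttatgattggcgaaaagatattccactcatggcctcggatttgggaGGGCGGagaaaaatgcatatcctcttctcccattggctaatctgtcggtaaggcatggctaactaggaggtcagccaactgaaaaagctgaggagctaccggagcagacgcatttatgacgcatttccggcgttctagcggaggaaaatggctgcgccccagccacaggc
Sphk2, higher in KO, chr7:45715158-45715457, minus strand: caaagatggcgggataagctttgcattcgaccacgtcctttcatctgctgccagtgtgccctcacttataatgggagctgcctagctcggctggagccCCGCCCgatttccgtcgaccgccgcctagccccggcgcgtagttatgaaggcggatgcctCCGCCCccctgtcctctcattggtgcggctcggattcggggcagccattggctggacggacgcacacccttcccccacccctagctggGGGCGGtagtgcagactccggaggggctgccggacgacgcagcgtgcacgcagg
Svip, lower in KO, chr7:52005969-52006268, minus strand: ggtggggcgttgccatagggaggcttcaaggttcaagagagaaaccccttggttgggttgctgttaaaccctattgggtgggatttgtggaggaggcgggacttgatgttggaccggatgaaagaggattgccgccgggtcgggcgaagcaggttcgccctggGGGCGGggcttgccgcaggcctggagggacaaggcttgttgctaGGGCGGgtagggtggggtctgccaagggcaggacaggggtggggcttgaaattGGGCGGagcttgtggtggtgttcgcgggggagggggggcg
The Trim30c window held the Runx letters at 2 places and 1 CpG. The Runx letters occur in 5.27% of all 32851 RefSeq windows of this length. The other printed windows held the GC box at 2 or 3 places and 14 to 27 CpGs, and 35.7% of all windows hold those letters. A GC box lay in windows of higher genes and of Svip, which was lower. Of the windows not printed, those of Mypop (higher) and Dhx32 (lower) held a GC box. That of Adamts17 (lower) held an E-box and no GC box. Such matches describe the letters of the window and show no binding.

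Trim30c, a member of the Trim30 family of antiviral and immune regulators in mice, had the highest ratio of the higher genes. Its single peak (104400602 to 104401019) had 28.4, 26.0, 30.9 and 22.8 CPM in WT replicates 1 to 4 and 54.8, 49.9 and 43.6 CPM in KO replicates 1 to 3. Every KO library lay above every WT library. The log2 fold change of the gene was 0.88 (SE 0.19, edgeR adjusted p = 0.00527), and the call was lost without KO replicate 1 (adjusted p = 0.146).

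Med29, a subunit of the Mediator complex that links transcription factors to RNA polymerase II, was counted from 2 peaks. They summed to 87.7, 119, 114 and 103 CPM in the WT libraries and to 136, 152 and 150 CPM in the KO libraries. The groups did not overlap, and the log2 fold change was 0.46 (SE 0.11, edgeR adjusted p = 0.0161). The peak at its start (28392551 to 28393060) also covered the start of Paf1, a factor of transcription elongation, on the opposite strand. The other peak lay 1934 bp outside Med29, nearest the start of Zfp36. Alone, the start peak had a log2 fold change of 0.53 (edgeR adjusted p = 0.0574 over all peaks).

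Sphk2, which makes the lipid mediator sphingosine 1-phosphate, had 1 peak (45715116 to 45715555), which also touched Rpl18, a gene of a ribosomal protein. It had 47.6, 53.9, 39.7 and 46.7 CPM in WT and 69.4 to 73.7 CPM in the 3 KO libraries. All KO values exceeded all WT values, with a log2 fold change of 0.61 (SE 0.15, edgeR adjusted p = 0.0299). Mypop, a Myb-related transcription factor, was counted from 2 peaks, both above 0. It had 67.1, 61.7, 61.8 and 64.4 CPM in WT and 85.3, 101 and 91.3 CPM in KO, again without overlap. Its log2 fold change was 0.52 (SE 0.13, edgeR adjusted p = 0.0365), and the call was lost in each of the 7 fits that left out 1 library (adjusted p from 0.062 to 0.159).

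Among the lower genes, Svip encodes a small inhibitor of protein degradation from the endoplasmic reticulum, bound to VCP. Its start peak (52005688 to 52006402) had 33.1, 22.1, 31.5 and 33.5 CPM in WT and 17.8, 14.6 and 10.4 CPM in KO. WT replicate 2 was the lowest WT library and still lay above every KO library. The log2 fold change was -1.05 (SE 0.24, edgeR adjusted p = 0.0155). Adamts17, a secreted metalloprotease of the extracellular matrix, had 85.8, 103, 104 and 78.1 CPM in WT and 68.4, 60.9 and 63.3 CPM in KO. It had 2 peaks, of which the tested one lay at its start (66839393 to 66839802) and also held the start of the noncoding gene Gm33627. Its log2 fold change was -0.51 (SE 0.13, edgeR adjusted p = 0.0413), and WT replicates 2 and 3 were the highest libraries. With that pair summed to 1 sample the adjusted p was 0.0598.

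Lrrk1 lies on the centromere side of Adamts17 and encodes a kinase with leucine-rich repeats. It was counted from 11 peaks, 8 of them tested, of which 5 were below and 3 above 0. Of those below, the weak peaks at 66219305 and 66225948 passed the count filter through the WT libraries alone. The direction of these peaks adds no support. The sum over all 11 peaks was 85.3, 87.0, 88.7 and 103 CPM in WT and 56.9, 79.8 and 58.1 CPM in KO (log2 fold change -0.52, SE 0.13, edgeR adjusted p = 0.0413). With only the 5 peaks that touch the gene, the call was lost (adjusted p = 0.193). The strongest of its peaks lay 24969 bp outside the gene (66233191 to 66233776, log2 fold change -0.63), and the RefSeq start nearest to it was that of Chsy1.

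Dhx32, a putative RNA helicase, and Lhpp, a phosphatase that acts on phosphohistidine, both lie in bin 14 of the 10 Mb bins described further on. Dhx32 had 30.8, 48.0, 37.3 and 34.0 CPM in WT and 24.9, 19.5 and 17.1 CPM in KO, so the groups did not overlap (log2 fold change -0.83, SE 0.21, edgeR adjusted p = 0.0413). With WT replicates 2 and 3 summed to 1 sample the adjusted p was 0.0583. The peak at its start also covered the start of Fank1 on the opposite strand. Lhpp had 9 peaks, all touching the gene. The peak at 132610351 to 132611027 covered an end of the gene (log2 fold change -0.64). The RefSeq starts used held none of Lhpp, so whether a peak lay at its start was not determined. Its sum was 99.3, 63.6, 95.7 and 115 CPM in WT and 62.8, 70.7 and 66.4 CPM in KO. WT replicate 2 fell inside the KO range here. The log2 fold change was -0.51 (SE 0.13, edgeR adjusted p = 0.0415), the weakest of the 12 calls. Just past the threshold were Myo7a and Trim30d (edgeR adjusted p = 0.0515 for both), each lower in KO.

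The gene called as Ins2, an insulin gene, was counted from 2 weak intergenic peaks 67883 and 89883 bp outside it, and the nearest RefSeq start was that of the noncoding gene Gm39116. Neither peak touched Ins2. The summed counts were 21, 12, 12 and 10 in WT and 0, 0 and 2 in KO, where 2 counts are 1 read pair. The stronger peak (142747609 to 142747964) had 18, 8, 8 and 6 counts in WT and none in any KO library. Its pooled WT level of 5.43 CPM was at least 6.28-fold higher than the floor that 3 read pairs over the KO group would give, 0.864 CPM. For both peaks together the WT level was 25.4 times the KO level, with an exact 95% interval of 4.19 to 1042 that covers counting error only. Neither peak passed the count filter alone. The edgeR adjusted p of the sum was 0.000156, and the sum passed the filter in 9 of the 17 alternatives, being called in 8 of them. In the fit as reported it passed the filter through the WT libraries alone, where it was high. These values are therefore a description and add no support.

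The Trim cluster held 3 of the 12 called genes, in both directions. These genes encode RING-domain ubiquitin ligases, among them restriction factors of retroviruses. They include near-identical copies, so reads may have been shared or lost between them, and the authors' handling of such reads is not known here. Of 15 tested peaks assigned to Trim6, Trim34a, Trim5, Trim12a, Trim12c, Trim30c, Trim30a and Trim30d, 12 were below and 3 above 0. Trim5 was counted from 3 peaks 2387 to 3809 bp outside the gene, with 133, 135, 173 and 135 CPM in WT and 90.0, 101 and 89.3 CPM in KO (log2 fold change -0.63, SE 0.11, edgeR adjusted p = 6.18e-05). All 3 were lower in every KO library than in any WT library. The peak called alone (104291568 to 104291948) had a log2 fold change of -0.73 (edgeR adjusted p = 0.0376). Trim12a, the next gene, had 108, 86.3, 92.2 and 85.2 CPM in WT and 53.3, 78.0 and 60.7 CPM in KO (log2 fold change -0.58, SE 0.13, edgeR adjusted p = 0.0155). All 4 of its peaks were below 0. Those at 104296672 and 104322064 were weak, with 3.05 to 4.15 and 3.55 to 3.65 CPM in KO. They passed the count filter through the WT libraries alone, so their direction adds no support, here or among the 12 peaks below 0.

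**Figure D2:**
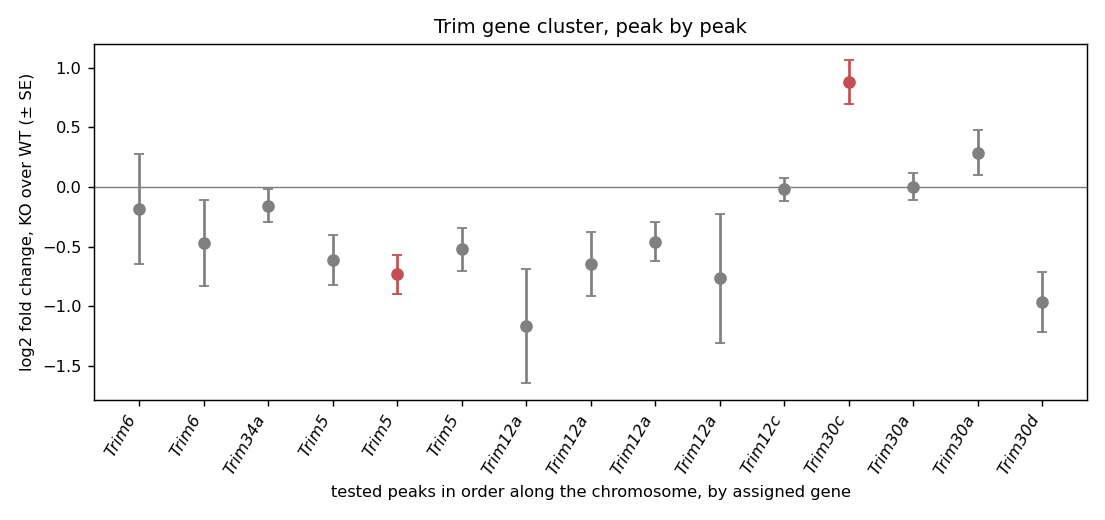
Log2 fold change of KO over WT, with its standard error, at the 15 tested peaks assigned to Trim genes of the cluster, in order along the chromosome; red marks an adjusted p under 0.05 over all peaks. The peaks of Trim5 and Trim12a lie below 0, Trim12c and the first Trim30a peak near 0, and Trim30c at 0.88.

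The Trim12c peak, past those of Trim12a, was near 0, at 183, 179, 158 and 152 CPM in WT and 155, 181 and 163 CPM in KO (104353187 to 104353651, log2 fold change -0.02, SE 0.09). So was the larger Trim30a peak (104445941 to 104446692), with a log2 fold change of 0.00 (SE 0.11). Trim30d, farther along than Trim30a, had 25.2, 24.0, 27.4 and 29.4 CPM in WT and 15.7, 14.6 and 9.86 CPM in KO. Its log2 fold change of -0.96 missed the threshold as a peak (edgeR adjusted p = 0.115) and as a gene (0.0515). Neighbouring Trim genes of the cluster therefore took higher, lower and near-zero values side by side.

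In bins of 10 Mb, the first 50 Mb lay above 0 and the next 30 Mb below. Bin 2 (10 to 20 Mb) summed to between 6277 and 6458 CPM in the WT libraries and to 6830, 7216 and 6905 in KO (log2 fold change 0.11, SE 0.03). Bin 3 (20 to 30 Mb) had between 6274 and 6544 in WT and 6998, 6924 and 6932 in KO (log2 fold change 0.10, SE 0.03). In bin 8 (70 to 80 Mb) the KO libraries lay lowest, at 3904 to 4017 CPM against 4020 to 4270 in WT (log2 fold change -0.07, SE 0.03). In bin 14 (130 to 140 Mb) they had 2524, 2439 and 2377 CPM against 2600 to 2764 in WT (log2 fold change -0.14, SE 0.03). In the other 11 bins the groups overlapped. How many bins of the other chromosomes lacked overlap was not counted, so nothing is read from this number. Over the 282 bins of the genome 5% lay above 0.07 and 5% below -0.09. These are differences of a few percent, and the bins were not tested.

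**Figure D3:**
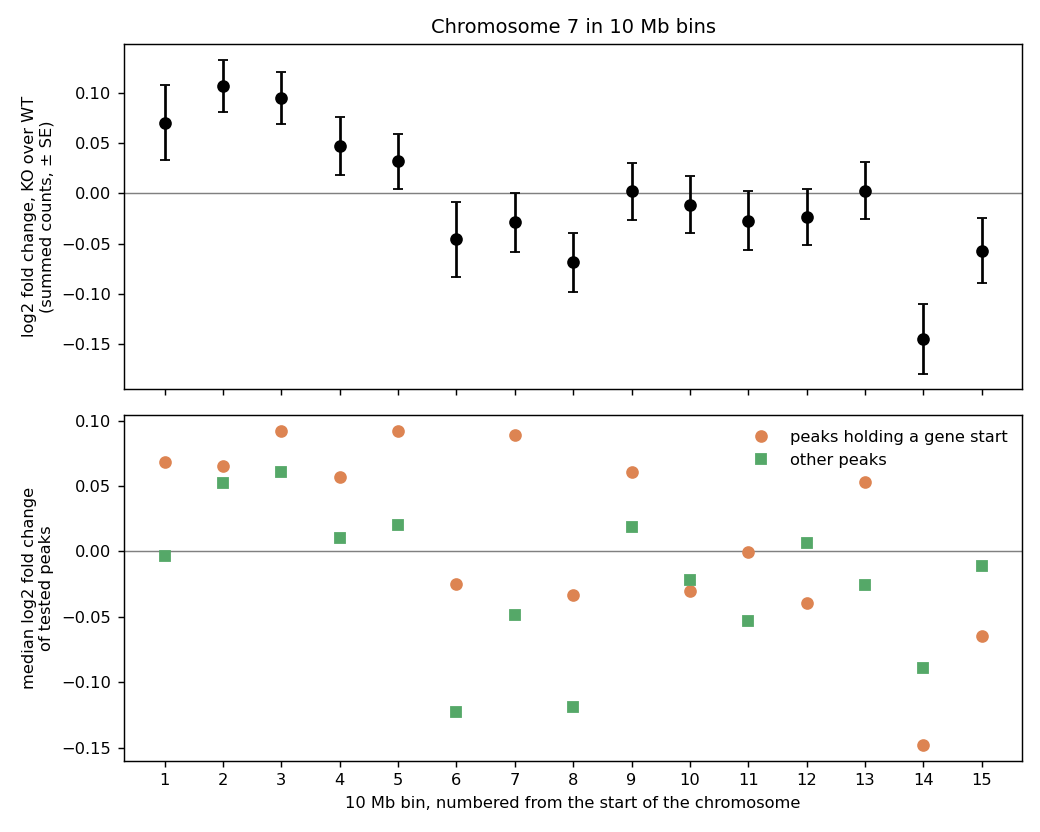
Upper panel, log2 fold change of KO over WT of counts summed over all peaks of each 10 Mb bin of chromosome 7, with its standard error. Lower panel, median log2 fold change of the tested peaks that hold a gene start (circles) and of the others (squares); bins 1 to 5 lie above 0 in the upper panel and bin 14 is lowest.

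The bins are sums of these same peaks and were used in choosing the chromosome, so the values on either side of 50 Mb restate them and add no support. Of 838 tested peaks in the first 50 Mb 490 were above 0 (58.5%), and of 1492 farther along 682 were (45.7%), with medians of 0.06 and -0.03. The 3 called genes in the first part were all higher (Mypop, Med29 and Sphk2). Of the 9 called genes beyond it, 8 were lower and Trim30c was higher. The first part also held more promoters: 34.8% of its tested peaks held a gene start, against 23.4% beyond. Peaks with a gene start lay higher in KO across the genome, with 58.1% of 7941 above 0, against 47.5% of 30100 other peaks. On chromosome 7 it was 57.1% of 641 and 47.7% of 1689. The share of all counts in such peaks was 38.9% to 39.7% in WT and 40.0% to 40.4% in KO, without overlap. Peaks with a gene start had a median log2 fold change of 0.08 in the first 50 Mb and -0.01 beyond, and other peaks 0.03 and -0.04. In bin 7 (60 to 70 Mb) the median of 18 peaks with a gene start was 0.09, near those of bins 3 and 5. Such medians were also above 0 in bins 9 and 13 (0.06 and 0.05). They were below 0 in bins 6, 8, 10, 11, 12, 14 and 15 (-0.0008 to -0.15). With only peaks holding a gene start summed, 12 of the 15 bins lay above 0, against 7 with all peaks. In bin 14, where 30.5% of tested peaks held a gene start, both classes were below 0 (medians -0.15 and -0.09). The part of promoter content in the bin values was not tested.

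Beyond the called genes, 13 peaks led by p among those whose groups did not overlap, 6 higher and 7 lower in KO, Trim30d among the latter. Sertad1, a regulator of cell cycle transcription, had a start peak (27486708 to 27487385) with 71.2 to 85.8 CPM in WT and 101 to 105 in KO (log2 fold change 0.40, edgeR adjusted p = 0.202). Egln2, a prolyl hydroxylase of the oxygen sensing pathway, had 68.8 to 82.2 CPM in WT and 88.3 to 111 in KO at its start (27166221 to 27167433, log2 fold change 0.38, edgeR adjusted p = 0.258). Farther along, a peak in Sytl2, a Rab27 effector in vesicle transport, was also above every WT library (90353801 to 90354229, 74.1 to 97.4 and 104 to 126 CPM, log2 fold change 0.39). The other 3 higher peaks were those of the zinc finger genes Zfp446 (log2 fold change 0.25), Zc3h4 (0.44) and Zfp626 (1.14), the last at 4.66 to 10.4 CPM in WT. On the lower side, a peak 12484 bp outside Wee1, a kinase that holds cells before mitosis, had 47.7 to 69.0 CPM in WT and 31.7 to 37.4 in KO (110109003 to 110109575, log2 fold change -0.70, edgeR adjusted p = 0.0574). A peak 14693 bp outside Bcl7c, a subunit gene of SWI/SNF remodelling complexes, had 6.53 to 13.0 CPM in WT and 1.18 to 4.87 in KO (log2 fold change -1.71, edgeR adjusted p = 0.178). A peak assigned to Gm45988 from 81756 bp away had 9.33 to 15.2 CPM in WT and 3.11 to 4.87 in KO (log2 fold change -1.59, edgeR adjusted p = 0.0987). The Bcl7c and Gm45988 peaks passed the count filter through the WT libraries alone, where they were high. Their values are therefore a description and add no support. The other lower peaks were those of Tmem135 (log2 fold change -0.96), the actin regulator Mical2 (-0.69) and Xylt1, a xylosyltransferase of proteoglycan synthesis (-0.75). Summed over all peaks of the gene, Tmem135 was at 0.04, Mical2 at -0.02, Xylt1 at -0.05 and Gm45988 at 0.15. Wee1 (-0.20) and Bcl7c (-0.50) were lower as sums too. None of the 13 peaks passed the threshold.

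None of 37 tested genes of T cell surface and signalling was called, against 0.345% of all tested genes. At so low a share a list of this size is likely to hold no call. Nothing is therefore read from the lack of calls, here or in the lists that follow. Of the 37 genes 19 were above 0, against 49.9% of all tested genes and 51.9% of those on the chromosome. The median log2 fold change of the list was 0.002, against -0.0004 over all tested genes. The smallest p was at Tgfb1, the cytokine through which Treg cells act and are induced, with 98.8, 105, 92.2 and 99.4 CPM in WT and 78.5, 83.4 and 68.5 CPM in KO. Every KO library was lower, by a log2 fold change of -0.37 (SE 0.13, edgeR adjusted p = 0.184). Sh2b1, an adaptor of receptor tyrosine kinases, had 48.0 to 58.9 CPM in WT and 60.3 to 69.3 in KO (log2 fold change 0.31, edgeR adjusted p = 0.426). At the most abundant peak of Lrrc32, which encodes GARP, the Treg surface protein that holds latent TGF-beta, the values were 11.7 to 21.0 and 15.6 to 22.5 CPM (log2 fold change 0.18, SE 0.27). Summed over its 9 peaks Lrrc32 was at -0.13 (SE 0.11). The most abundant peaks of Il4ra (0.05, SE 0.13), Spn (-0.17, SE 0.37), Itgal (-0.06, SE 0.27), Cd81 (-0.07, SE 0.45) and Ucp2 (-0.14, SE 0.14) also overlapped between the groups. Summed over all their peaks, Itgal was at 0.18 (SE 0.16) and Il4ra at -0.03 (SE 0.08), each on the other side of 0. Stim1, the calcium sensor of store-operated entry, was higher in every KO library at its start peak, with 66.2 to 73.7 and 74.3 to 84.7 CPM (log2 fold change 0.20, edgeR adjusted p = 0.663). Lat, the adaptor downstream of the T cell receptor, had 35.0 to 38.0 and 38.4 to 47.7 CPM at its start peak (log2 fold change 0.24, edgeR adjusted p = 0.71). Summed over its 5 peaks Lat was at 0.06 (SE 0.14).

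Of 18 tested transcription regulators none was called (0.345% of all tested genes were) and 12 were above 0 (49.9% of all). Crtc3, a coactivator of CREB, had 14 peaks with 156 to 181 CPM in WT and 197 to 214 in KO (log2 fold change 0.28, edgeR adjusted p = 0.131). Bcl3, an atypical inhibitor of NF-kB, had 108 to 144 and 145 to 176 CPM (0.29, adjusted p = 0.205 in edgeR). At the most abundant peak of Relb, an NF-kB subunit, the log2 fold change was 0.13 (SE 0.10), and at that of Irf7, a regulator of interferon genes, -0.17 (SE 0.21). In the interferon and Trim list 3 of 15 tested genes were called, against 0.345% of all tested genes, and 10 were below 0. The 3 are the neighbouring Trim genes already described, so the list adds no support of its own.

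Of 28 tested mitochondrial genes none was called (0.345% of all tested genes were) and 13 were above 0 (49.9% of all). Opa3, an outer membrane protein whose human gene is mutated in optic atrophy, had 256, 238, 254 and 261 CPM in WT. In KO it had 287, 281 and 292 CPM, all above WT (log2 fold change 0.18, SE 0.08, edgeR adjusted p = 0.332). Tomm40, the channel of the outer membrane import complex, had 265 to 293 and 291 to 340 CPM (0.21, adjusted p = 0.208 in edgeR). Of 20 tested genes of lysosomes, autophagy and vesicle traffic none was called and 12 were above 0. Ap2a2, a subunit of the clathrin adaptor at the plasma membrane, had 73.2 to 101 CPM in WT and 51.4 to 68.8 in KO (log2 fold change -0.42, edgeR adjusted p = 0.136). At the most abundant peak of Ctsd, the lysosomal protease cathepsin D, the log2 fold change was 0.33 (SE 0.22), and summed over its 3 peaks 0.07 (SE 0.17). Of 18 genes of cell cycle and DNA repair 14 were above 0 and none was called, with a median of 0.11. Above 0 were 49.9% of all tested genes, 51.9% on the chromosome and 280 of 446 in its first 50 Mb. The difference of the list from these was not tested. Ercc2, a helicase of nucleotide excision repair, led with 27.0 to 32.5 and 38.5 to 46.9 CPM (0.55, adjusted p = 0.197 in edgeR). The most abundant peak assigned to Mki67, 19181 bp outside it, went the other way, with 66.4 to 84.9 and 49.8 to 69.3 CPM (log2 fold change -0.32, SE 0.14). Summed over its 4 peaks Mki67 was at -0.06 (SE 0.10), and the groups overlapped. None of 7 tested stress and cell death genes and none of 10 tested imprinted genes was called. Of the imprinted genes 8 were above 0, led by Ampd3 (log2 fold change 0.24, edgeR adjusted p = 0.388).

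The receptor gene arrays had few peaks. Of 239 olfactory receptor genes on the chromosome 19 had a peak assigned, and of 178 vomeronasal receptor genes 2. The peaks of the 19 olfactory receptor genes summed to 248, 227, 202 and 235 CPM in WT and to 190, 157 and 160 CPM in KO, and the groups did not overlap. On the other chromosomes, 35 such genes summed to 552 to 610 CPM in WT and 553 to 570 in KO, which overlapped. The chromosome 7 sums were compared after their values had been seen, and the difference between the 2 sets was not tested. Olfr530 stood first, with 12.1, 18.2, 17.5 and 18.3 CPM in WT and at most 8.0 CPM in KO (log2 fold change -1.24, edgeR adjusted p = 0.0752). Peaks near Hbb-bt, an adult beta globin gene and marker of erythroid cells, summed to 27.4 to 39.7 CPM in WT and 22.8 to 23.1 in KO (log2 fold change -0.52, edgeR adjusted p = 0.315).

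**Figure D4:**
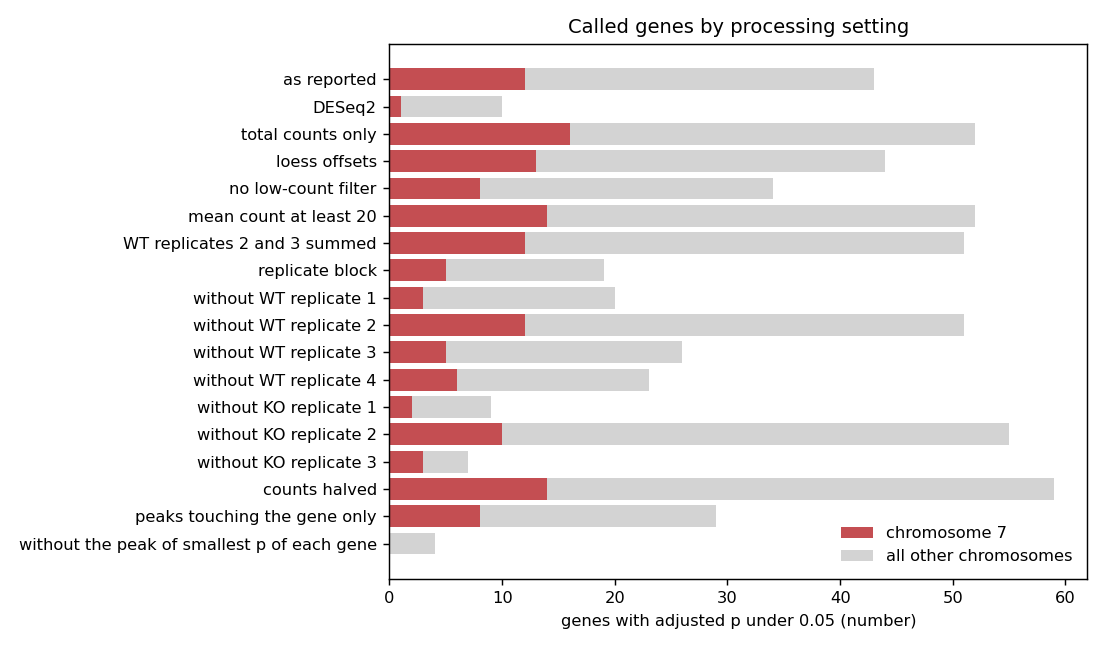
Number of genes with an adjusted p under 0.05 as reported and under each alternative setting, with chromosome 7 in red and all other chromosomes in grey. Chromosome 7 gives 12 of 43 genes as reported, 1 of 10 with DESeq2 and none of 4 when each gene's peak of smallest p is left out.

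How far the 12 calls held differed between genes. Trim5 was called in 15 of 16 alternatives and in each of the 7 fits that left out 1 library. Ins2, which entered the reported fit through its WT counts alone, was called in 8 of the 9 that gave it a value. Trim30c was called in 13 of 15, Svip in 11 of 15 and Trim12a in 11 of 17. Dhx32 was called in 5 of 16, Mypop in 6 of 17 and Lrrk1 in 7 of 17. Adamts17 was called in 7 of 16, Lhpp in 8 of 17, Med29 in 9 of 17 and Sphk2 in 9 of 16. Of the 7 fits that left out 1 library, Adamts17 was called in 1 and Lhpp, Med29 and Sphk2 in 2 each. None of the 12 changed direction in any alternative that gave a value. With each gene's peak of smallest p left out, none of the chromosome's genes was called, among 507 tested. Genes with a single peak, such as Trim30c, Svip and Sphk2, drop out of that fit.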

How the data were processed

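For 7 libraries the authors deposited unnormalized counts, whole numbers for each mm10 peak interval. Per the submitters' processing notes the tools included MACS2 2.1.1, bedtools 2.25.0, BWA 0.7.16, SAMtools 1.9, Trimmomatic 0.36 and Picard 2.9.4. Settings, peak merging, mapping filters, any shift of reads for the transposase and the base of interval starts were not given in the sources used here, and positions are printed as deposited. Between 78.0% and 86.3% of counts per library were even, as counting both mates of a pair gives, so counts overstate fragments. The library is the replicate, p-values measure the spread between these libraries, and intervals and floors (3 read pairs, 6 counts) cover counting error only.

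Each peak was assigned to the protein-coding gene of the GRCm38.p6 table that it overlapped most, or else to the closest one within 100 kb, a label of position that says nothing of the gene controlled. Counts were tested per peak and summed per gene with edgeR 4.0.16 (quasi-likelihood, robust, R 4.3.3) over the whole genome, with genotype as the only term, filterByExpr (minimum count 10, total 15), TMM and Benjamini-Hochberg adjustment. The standard error is the log2 fold change divided by the root of the F statistic. CPM values are counts scaled to library size with the TMM factors of the peak fit. Bins were summed and fitted the same way. DESeq2 1.42.0 was an alternative. The common biological coefficient of variation was 0.157. The procedure was tested on simulated data. The rule for named features took all called peaks and genes, the leading non-overlapping ones, up to 3 genes per list and the most abundant peak of 15 genes; the text leaves out some uncalled genes it took. Myo7a, Trim12c, Trim30a and the olfactory sums were added after their values were seen. The members and lists were chosen with earlier results of these data known. Gene starts came from RefSeq promoter windows (250 bases before, 50 after). Python 3.11.15, pandas 2.3.3, NumPy 2.4.6, SciPy 1.17.1 and matplotlib 3.10.9 were used. A B cell marker of the fixed list is not reported here.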

Additional observations from a re-analysis of the deposited data

Results flagged for a closer look

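In 57 sets of 4 WT values (42 named genes and 15 bins), 3 had 1 library far from the other 3, and chance gives about 1 in 20 such sets. At Trim5, WT replicate 3 had 173 CPM and the other WT libraries 133 to 135, a gap of 0.958 of the range. At Olfr530, WT replicate 1 had 12.1 CPM and the others 17.5 to 18.3, a gap of 0.876 of the range. In bin 2 (10 to 20 Mb), WT replicate 2 had 6277 CPM and the others 6430 to 6458, a gap of 0.848 of the range. At Trim5 every KO library lay below every WT library with that library set aside, and the Trim5 call held without it.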

How the results depend on the processing

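The number of called peaks on the chromosome, 2 as reported, was 4 with total counts as the only scaling, 4 with loess offsets, 4 with WT replicates 2 and 3 summed, 6 with a mean count of at least 20 and 8 with counts halved. It was 0 with the replicate number as a block and 0 to 5 when 1 library was left out. The number of called genes, 12 as reported, was 1 with DESeq2, 5 with the replicate block, 0 without the peak of smallest p of each gene and 2 to 12 when 1 library was left out. The labels' numbers did not pair the libraries (correlations of 0.011, -0.012 and 0.004 for numbers 1 to 3). The split of the 12 genes into 4 higher and 8 lower was 4 and 4 without a low-count filter and 0 and 5 with the block. The 7 bins above 0 became 12 when only peaks holding a gene start were summed, a choice made after the data had been seen, and stayed between 6 and 9 in the other alternatives. The difference in the chromosome's share of counts ran from 0.008 to 0.083 percentage points when 1 library was left out, against 0.039. Of 962 values of named genes and peaks under an alternative, 842 kept their direction and side of the threshold, 90 lost a call, 24 gained one and 6 changed sign. Those 6 were uncalled genes: Art2b (0.047) and Wee1 (0.18) with touching peaks only, Atp10a without KO replicate 1 (-0.109 to 0.013 over the fits that left out 1 library), Klk10 with the block (0.058), and Opa3 (-0.19) and Xrcc1 (-0.16) without their peak of smallest p. The block changed no other call named in the report than those of Trim30c, Svip, Med29, Sphk2, Mypop, Dhx32, Lrrk1 and Lhpp, which it removed, and those of the called Trim5 and Trim30c peaks. Depth limits the weak peaks most, the removed 667 above all.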
